A study of Mus musculus with 8 samples.

Results

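Tbx1, Tbx2, Tbx5 and Tbx20 encode T-box transcription factors that pattern the embryonic heart. The members were every probe set of the deposited array table that carries one of these names as its single gene symbol, which gave 7 of 45101 probe sets and 4 of 18193 named genes (1 for Tbx1, 1 for Tbx2, 2 for Tbx5 and 3 for Tbx20). Tbx1 lies on mouse chromosome 16, Tbx2 on chromosome 11, Tbx5 on chromosome 5 and Tbx20 on chromosome 9. They were measured on 8 Affymetrix arrays of total RNA from mouse cultures, in a study of parthenogenetic cells for heart repair. Embryoid bodies (EB_PSC, 2 arrays) are aggregates in which parthenogenetic stem cells of strain C57BL/6 differentiated for 15 days. Parthenogenetic stem cells (PSC, 3 arrays), also C57BL/6, were isolated at day 6 from blastocysts grown from oocytes activated with strontium chloride, so they carry maternal genomes only. Embryonic stem cells (ESC, 3 arrays) are the line R1, grown with murine LIF (leukemia inhibitory factor) over a layer of mouse embryonic fibroblasts. The labels name no clone for PSC and mention feeders only for ESC. They do not say whether the arrays of a group come from separate cultures, so each p-value reflects the spread among arrays, which may be technical. For each probe set the fit pooled 1 spread over all 8 arrays and moderated it by that of all probe sets. A small p-value therefore does not measure agreement between the 2 embryoid body arrays.

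T-box proteins bind DNA through a shared domain and recognise a short element whose half-site reads GGTGTGA. In the heart, Tbx5 and Tbx20 act with Nkx2-5 and Gata4 on genes of the working myocardium, whereas Tbx2 and its close relative Tbx3 repress those genes where the atrioventricular canal and the conduction system form. Tbx1 acts earlier and further forward, in pharyngeal mesoderm and endoderm that supply the outflow tract, and Tbx20 is known to restrain Tbx2 in the chambers.

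The promoter of Tbx20, the member with the largest difference in these arrays, is shown beside that of Nppa, the atrial natriuretic peptide gene and a textbook target of Tbx5, Tbx20 and Tbx2. Both run 5′ to 3′ from 250 bases before to 50 after the start site (RefSeq, GRCm38.p6), with Tbx20 at chr9:24774254-24774553 on the minus strand and Nppa at chr4:148000472-148000771 on the plus strand. Capitals mark the T-box half-site GGTGTGA and the core of the Nkx2-5 element AAGTG, each searched on both strands (as TCACACC and CACTT on the other).
Tbx20 promoter: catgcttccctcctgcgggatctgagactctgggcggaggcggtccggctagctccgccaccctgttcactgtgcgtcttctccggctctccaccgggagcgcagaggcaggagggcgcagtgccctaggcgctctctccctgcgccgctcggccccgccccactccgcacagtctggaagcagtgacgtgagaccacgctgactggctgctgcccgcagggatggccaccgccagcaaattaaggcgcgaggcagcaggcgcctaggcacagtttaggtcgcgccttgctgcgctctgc
Nppa promoter: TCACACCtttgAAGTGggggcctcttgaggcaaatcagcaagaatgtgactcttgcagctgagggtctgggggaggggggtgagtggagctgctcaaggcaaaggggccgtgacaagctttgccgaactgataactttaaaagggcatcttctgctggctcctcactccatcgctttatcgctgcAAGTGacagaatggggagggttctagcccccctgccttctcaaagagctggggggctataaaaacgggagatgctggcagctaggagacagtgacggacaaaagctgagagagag
The Nppa window begins with a T-box half-site at position -250, on the opposite strand, and has Nkx2-5 cores at -239 and -65, none of them overlapping. The Tbx20 window holds neither run of letters, and neither do the 2 Tbx1 windows of the same table. Of the 32851 promoter windows of that table, 3.98% hold the T-box half-site, 46.4% the Nkx2-5 core and 1.88% both. Of the 4 genes, Tbx20 and Tbx1 matched the promoter table.

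All values are deposited log2 expression values made with RMA. Their range over all probe sets was 2.56 to 14.9. Medians of single arrays lay at 5.39 to 5.47, and the median of all values, 5.44, served as the limit below which a probe set is called dim. A difference with a dim group is the fitted difference of the deposited values, is not fully measured in size, and is given without a fold; where both groups are dim it lies between values near background. Taken across probe sets, none of them an independent replicate, arrays of a group correlated at Pearson's r from 0.991 to 0.995, PSC with ESC arrays from 0.978 to 0.986, and embryoid body with PSC arrays from 0.934 to 0.943. The labelled cell states carried their markers. The mean log2 level of 8 pluripotency genes was 9.35 to 9.40 in embryoid bodies, 11.40 to 11.58 in PSC and 11.99 to 12.18 in ESC, and that of 17 cardiomyocyte genes was 7.92 to 8.62 in embryoid bodies, 5.35 to 5.45 in PSC and 5.26 to 5.44 in ESC. The log2 difference between 3′ and 5′ control probe sets, a measure of RNA integrity, was -0.09 to -0.06 for Gapdh in embryoid bodies, -0.06 to 0.00 in PSC and 0.08 to 0.17 in ESC, and 1.09 to 1.17, 1.04 to 1.54 and 0.69 to 1.13 for Actb in the same order; their part in any result was not tested.

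**Figure D1:**
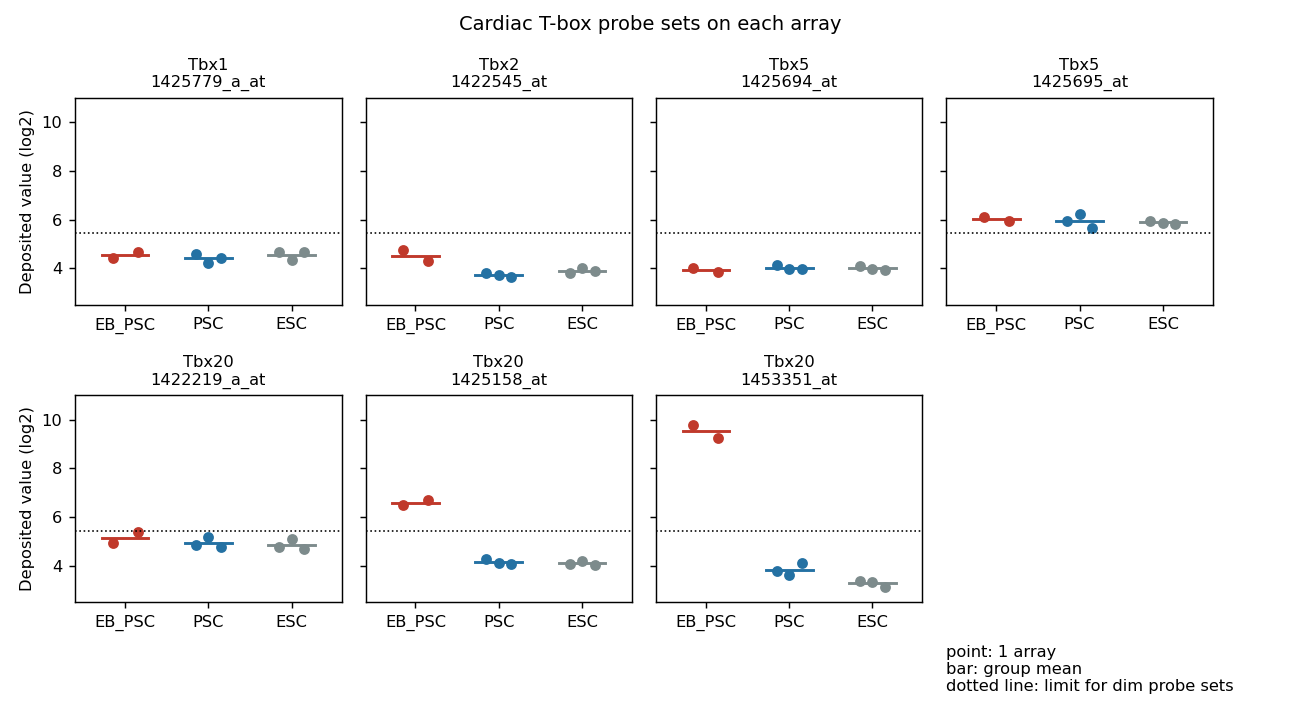
Deposited log2 values of the 7 probe sets of Tbx1, Tbx2, Tbx5 and Tbx20 on each array, in embryoid bodies (EB_PSC), PSC and ESC. Points are arrays, bars are group means and the dotted line is the dim limit of 5.44. Of the 7, 2 Tbx20 probe sets crossed that limit in embryoid bodies alone, and 1 Tbx5 probe set lay above it on all 8 arrays.

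The first comparison followed PSC into embryoid bodies, where beating heart muscle can arise. Tbx20 rose steeply and Tbx2 rose slightly, while Tbx1 and Tbx5 did not pass the test. In all, 3 of 7 probe sets were higher in embryoid bodies and 0 lower (limma, adjusted p below 0.05; 3 and 0 also at an unadjusted p below 0.05). Over all probe sets tested, 15.6% were higher, 18.9% were lower and 34.5% changed in either direction. The median difference of the members was 0.23, against -0.08 over all probe sets. Groups did not overlap for 3 of the 7, against 56.6% of all probe sets. In these bulk cultures a change in the share of cells that use a gene and a change in its RNA per cell cannot be told apart.

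Tbx20 is needed for growth of the heart chambers and is used from the early heart tube onward. Its probe set 1453351_at read 9.79 and 9.26 in embryoid bodies, against 3.79, 3.60 and 4.13 in PSC. All PSC arrays were dim and both embryoid body arrays were far above them. The means were 9.53 ± 0.38 (SD, n = 2) in embryoid bodies and 3.84 ± 0.27 (SD, n = 3) in PSC, a difference of 5.69 ± 0.19 (SE; limma adjusted p = 3.09e-10).

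The other 2 Tbx20 probe sets gave smaller values. Probe set 1425158_at read 6.47 and 6.68 in embryoid bodies, against 4.27, 4.12 and 4.05 in PSC. Again the groups lay apart, and the difference was 2.43 ± 0.13 (adjusted p = 2.29e-08). Probe set 1422219_a_at read 4.94 and 5.36 in embryoid bodies, against 4.83, 5.16 and 4.75 in PSC. Its groups overlapped, every array was dim, and the difference of 0.23 ± 0.18 did not pass the test (95% confidence interval -0.16 to 0.63, adjusted p = 0.365). The annotation ties the 3 probe sets to 3 different source sequences of the same gene, and whether they read different transcript forms was not tested. When the 3 probe sets were averaged, Tbx20 rose by 2.78. Over the 18 alternatives for 1453351_at, which count that average as 1, the difference lay between 2.78 and 5.95.

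The gap between the Tbx20 probe sets can be followed array by array. The value of 1453351_at minus that of 1425158_at was 3.32 and 2.58 in embryoid bodies, against -0.47, -0.52 and 0.08 in PSC. The value of 1425158_at minus that of 1422219_a_at was 1.53 and 1.32 in embryoid bodies, against -0.56, -1.05 and -0.71 in PSC. In both cases all embryoid body arrays lay above all PSC arrays, where the 3 probe sets were dim. The 2 embryoid body arrays also ranked differently, with 1453351_at higher in replicate 1 and the other 2 probe sets higher in replicate 2.

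Tbx2 is a repressor of the chamber programme that marks the atrioventricular canal and outflow tract, and it is also used in limb, lung and eye. Probe set 1422545_at read 4.76 and 4.29 in embryoid bodies, against 3.82, 3.73 and 3.64 in PSC. Both embryoid body values lay above the 3 PSC values, although all 8 arrays were dim. The difference was 0.79 ± 0.15 (adjusted p = 0.00122), and it was 0.56 without embryoid body replicate 1 and 1.03 without replicate 2. The call held under every alternative that tested this probe set and kept both embryoid body arrays. A fit without 1 of them cannot measure the spread of that group, so only its difference is given.

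Tbx5 is the T-box activator of the posterior heart field, the atria and left ventricle, and of the forelimb. Probe set 1425695_at, the member that was above the dim limit on every array, read 6.10 and 5.96 in embryoid bodies, against 5.94, 6.22 and 5.65 in PSC. The embryoid body values lay inside the PSC range, and the difference was 0.09 ± 0.16 (95% confidence interval -0.25 to 0.44, adjusted p = 0.703). The second Tbx5 probe set, 1425694_at, read 4.03 and 3.85 in embryoid bodies, against 4.12, 3.99 and 3.96 in PSC. These groups overlapped as well (-0.09 ± 0.12, interval -0.36 to 0.18, adjusted p = 0.639). The value of 1425695_at minus that of 1425694_at was 2.07 and 2.11 in embryoid bodies, against 1.81, 2.23 and 1.69 in PSC (1425694_at was dim on all 8 arrays).

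Tbx1, whose human counterpart is the main gene of DiGeorge syndrome, acts in the second heart field. Probe set 1425779_a_at read 4.40 and 4.66 in embryoid bodies, against 4.57, 4.21 and 4.44 in PSC. All were dim and the groups overlapped, with a difference of 0.13 ± 0.16 (95% confidence interval -0.21 to 0.47, adjusted p = 0.579). At this signal a low level of Tbx1 RNA could not be told from background.

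**Figure D2:**
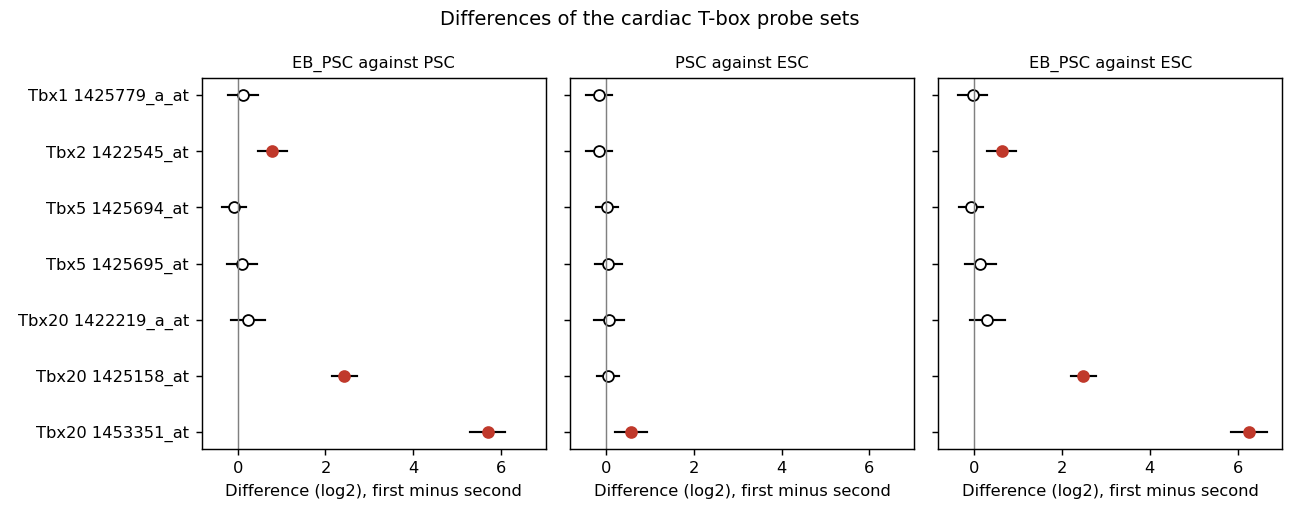
Differences of log2 values for the 7 probe sets in 3 comparisons, first group minus second. Points are limma estimates, lines are 95% confidence intervals, and filled points passed the test. In both comparisons with embryoid bodies Tbx20 1453351_at (5.69 and 6.25) and 1425158_at (2.43 and 2.48) and Tbx2 (0.79 and 0.63) were higher; between PSC and ESC 1 probe set passed the test, Tbx20 1453351_at (0.57).

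The second comparison set undifferentiated PSC against ESC, which differ in genome origin, line and possibly culture. In both kinds of culture 6 of the 7 probe sets were dim, and the exception was Tbx5 1425695_at. Of the 7, 1 was higher in PSC and 0 lower (limma; 1 and 0 also at an unadjusted p below 0.05), whereas 7.07% of all probe sets were higher, 8.55% were lower and 15.6% changed in either direction. The 1 was Tbx20 1453351_at, at 3.79, 3.60 and 4.13 in PSC, against 3.37, 3.34 and 3.11 in ESC. The groups did not overlap, as for 32% of all probe sets, and every array was dim. The difference of 0.57 ± 0.17 (adjusted p = 0.0373) lost its call without PSC replicate 1 (0.0934) or 3 (0.142), without ESC replicate 1 (0.0596), 2 (0.0501) or 3 (0.141), with repeated quantile normalization (0.0563), with cyclic loess (0.0829) and with the average of the 3 probe sets (0.23, adjusted p = 0.118), and over all alternatives its adjusted p lay between 0.0051 and 0.142. The other Tbx20 probe sets differed by 0.05 ± 0.12 (1425158_at, adjusted p = 0.842) and 0.07 ± 0.16 (1422219_a_at, adjusted p = 0.835).

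For the other 3 genes no difference between PSC and ESC passed the test. Tbx2 read 3.82, 3.73 and 3.64 in PSC, against 3.79, 4.01 and 3.87 in ESC (-0.16 ± 0.14, adjusted p = 0.5). Tbx1 read 4.57, 4.21 and 4.44 in PSC, against 4.68, 4.36 and 4.65 in ESC (-0.16 ± 0.14, adjusted p = 0.524). Tbx5 1425695_at read 5.94, 6.22 and 5.65 in PSC, against 5.95, 5.87 and 5.84 in ESC (0.05 ± 0.14, adjusted p = 0.864), and Tbx5 1425694_at differed by 0.03 ± 0.11 (adjusted p = 0.912). The groups overlapped in all of these, and the 95% confidence intervals lay between -0.46 and 0.36. On the same arrays 7 of 10 fibroblast genes, which feeder cells also express, were lower in PSC and 0 higher, beside 10.5% lower and 8.21% higher over all genes. Their mean log2 level was 5.74 to 5.95 in PSC and 6.60 or higher in ESC, and their part in these values was not tested.

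Set against ESC, embryoid bodies had the same 3 probe sets higher and 0 lower (3 and 0 also at an unadjusted p below 0.05), against 16.4% higher, 19.5% lower and 35.9% changed over all probe sets. Groups did not overlap for 4 of the 7, against 55.1% of all probe sets. This comparison shares its embryoid body arrays with the first. In it differentiation cannot be told apart from genome origin, line and possibly culture. Tbx20 1453351_at was at 9.53 ± 0.38 (SD, n = 2) in embryoid bodies and 3.27 ± 0.14 (SD, n = 3) in ESC (6.25 ± 0.19, adjusted p = 1.88e-10; 3.01 averaged over its probe sets), and 1425158_at at 6.57 ± 0.15 in embryoid bodies and 4.09 ± 0.09 in ESC (2.48 ± 0.13, adjusted p = 1.83e-08). Tbx2 was at 4.52 ± 0.33 in embryoid bodies and 3.89 ± 0.11 in ESC (0.63 ± 0.15, adjusted p = 0.00531), a call that was lost without embryoid body replicate 1 (0.40, adjusted p = 0.0931). Tbx1 differed by -0.03 ± 0.16 and the Tbx5 probe sets by 0.15 ± 0.16 and -0.06 ± 0.12 (adjusted p between 0.547 and 0.911).

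In the order of the 3 kinds of culture, embryoid bodies were highest for Tbx20 1453351_at, Tbx20 1425158_at and Tbx2. PSC and ESC were both dim for these 3 probe sets and are given no order. For Tbx1, both Tbx5 probe sets and Tbx20 1422219_a_at no neighbours in the order differed beyond their spread, and the 8 values of each spanned 0.48 (Tbx1), 0.28 and 0.57 (Tbx5) and 0.69 (Tbx20) log2 units.

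The rest of the T-box family moved in both directions. The family list held 13 further genes, of which 11 were measured and 2 were not analysed here. By the brightest probe set of each gene, 1 rose in embryoid bodies against PSC, 3 fell and 7 missed the threshold, where 18.1% of all genes rose, 23.7% fell and 41.8% changed in either direction. The median difference was -0.03, against -0.09 over all genes. Eomes, a T-box factor of early mesoderm and endoderm, read 9.80 and 9.03 in embryoid bodies, against 6.10, 5.96 and 6.06 in PSC. By this brightest probe set the rise was 10.4-fold (3.37 ± 0.19, adjusted p = 3.4e-08). The other Eomes probe set, also above the dim limit in both groups, rose 3.28-fold (1.71 ± 0.18, adjusted p = 1.07e-05). When its probe sets were averaged, Eomes rose by 2.54 log2 units. Tbx3, the repressor closest to Tbx2 and a gene that mouse stem cells also use in self-renewal, read 6.86 and 6.40 in embryoid bodies, against 9.23, 9.18 and 9.03 in PSC, and fell to 0.174 of the PSC level (-2.52 ± 0.15, adjusted p = 6.97e-08). Tbx2 and Tbx3 thus differed from PSC in opposite directions on the same arrays, although Tbx2 was dim on all 8 of them.

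**Figure D3:**
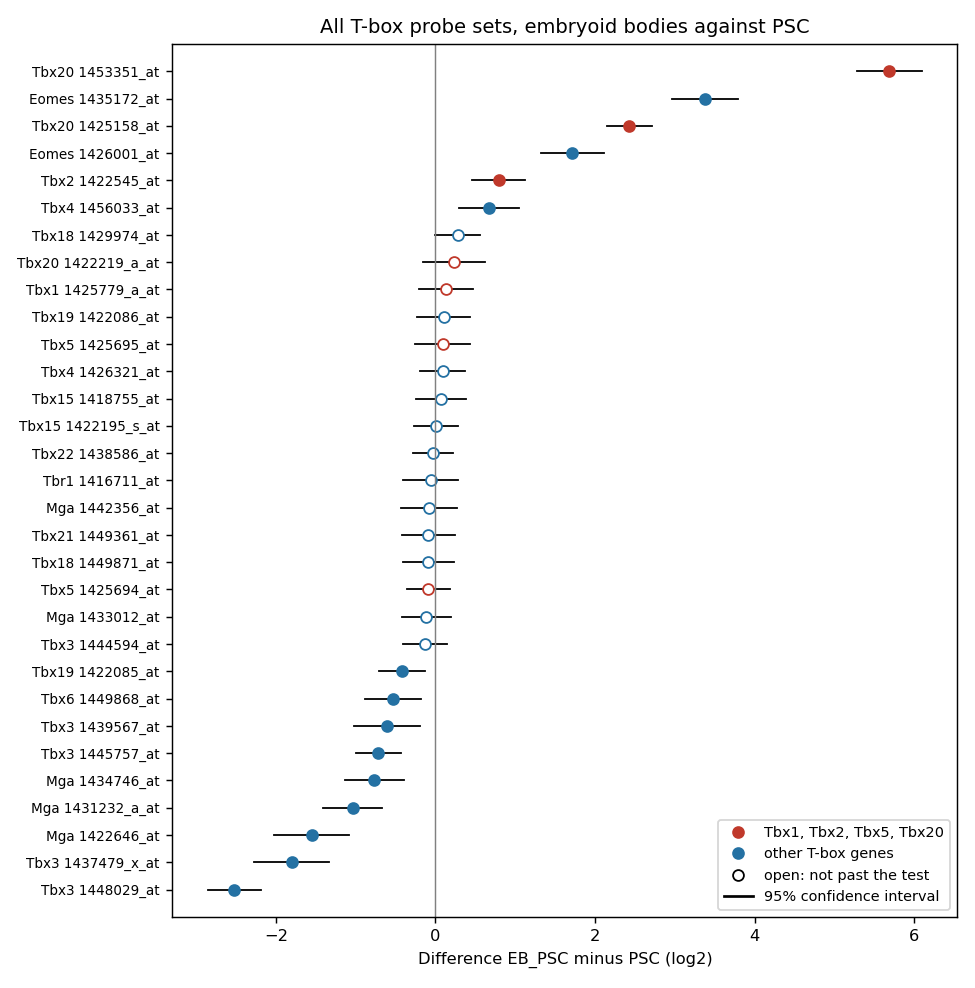
Difference of embryoid bodies minus PSC (log2) for the 7 probe sets of the 4 genes and the 24 of the other T-box genes, with 95% confidence intervals. Red marks Tbx1, Tbx2, Tbx5 and Tbx20, blue the other T-box genes, and open points did not pass the test. Tbx20 1453351_at (5.69) stands at the top and Tbx3 1448029_at (-2.52) at the bottom.

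Counted over all 24 probe sets of these 11 genes, 3 were higher and 9 lower in embryoid bodies, and 12 did not pass the test. Over all probe sets tested, 15.6% were higher, 18.9% lower and 34.5% changed in either direction. The Tbx3 fall was smaller when its 5 probe sets were averaged (-1.15, adjusted p = 1.4e-05). Mga, which joins a T-box to a Max-binding domain, fell by 0.76 ± 0.17 (adjusted p = 0.00368), a call that was lost without embryoid body replicate 2 (adjusted p = 0.0565). Tbx6, a factor of the presomitic mesoderm, fell by 0.53 ± 0.16 (adjusted p = 0.0208), and that call was lost without PSC replicate 1 (0.0676) or 2 (0.0803) or embryoid body replicate 1 (0.104) or 2 (0.0687). Tbx6 was dim in both groups, at 4.77 in embryoid bodies and 5.30 in PSC. Tbx18, a factor of the sinus horns and epicardium, was also dim, at 4.50 ± 0.09 (SD, n = 2) in embryoid bodies and 4.22 ± 0.05 (SD, n = 3) in PSC (0.28 ± 0.13, adjusted p = 0.119). Between PSC and ESC, 1 of the 11 was higher, 0 lower (2 and 2 at an unadjusted p below 0.05) and 10 did not pass the test, where 8.21% of all genes were higher, 10.5% lower and 18.8% changed in either direction. The 1 was Tbx3 (9.15 in PSC and 8.49 in ESC, difference 0.66 ± 0.14, adjusted p = 0.00589), a call lost on averaging its probe sets (0.22, adjusted p = 0.207).

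Of 14 genes that encode protein partners of T-box factors, 9 rose in embryoid bodies against PSC, 2 fell and 3 missed the threshold, beside 18.1% higher and 23.7% lower over all genes. Their median difference was 0.76. Hand2, a helix-loop-helix factor of the right ventricle and of limb and branchial mesoderm, read 9.63 and 9.58 in embryoid bodies, against 4.67, 4.79 and 4.44 in PSC (4.97 ± 0.14, adjusted p = 1.57e-10; 1.97 averaged over its probe sets). The zinc finger genes Gata6 and Gata4 rose by 2.55 ± 0.15 and 1.34 ± 0.14 (adjusted p = 6.35e-08 and 7.35e-06), Isl1, a second heart field factor, by 1.64 ± 0.17 (9.81e-06), and Pdlim7, an actin-associated protein that binds Tbx5, by 1.35 ± 0.21 (0.000275). Averaged over its probe sets, Gata6 rose by 1.38. Sall4, a Tbx5 partner and a pluripotency gene, fell by 1.22 ± 0.12 (7.22e-06).

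Nkx2-5, the homeodomain partner of Tbx5 and Tbx20, was at 6.33 and 6.57 in embryoid bodies, against 6.24, 6.05 and 6.09 in PSC. The groups did not overlap, but the difference of 0.32 ± 0.14 did not pass the test (adjusted p = 0.0954); it did with cyclic loess (0.45, adjusted p = 0.0193), within a range up to 0.434 over the alternatives. Between PSC and ESC, 1 partner gene was higher and 4 were lower, and 9 did not pass the test, beside 8.21% higher and 10.5% lower over all genes. Smarcd3, the chromatin remodelling subunit that assists Tbx5, was lower, at 6.46 in PSC and 7.37 in ESC (-0.91 ± 0.16, adjusted p = 0.00215), Isl1 was higher (0.67 ± 0.15, 0.0106; 0.0565 without PSC replicate 2) and Pdlim7 was lower (-0.62 ± 0.19, 0.0439). Both Isl1 means lay below the dim limit, at 5.43 in PSC and 4.76 in ESC. The Pdlim7 call did not hold under cyclic loess (0.0588), on averaging its probe sets (0.0636), or without PSC replicate 1 (0.124), 2 (0.118) or 3 (0.101) or ESC replicate 1 (0.148) or 3 (0.0902).

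Among 23 measured genes that T-box factors are known to regulate, 14 rose in embryoid bodies, 3 fell and 6 missed the threshold, beside the same 18.1% and 23.7% over all genes. Their median difference was 0.67. This list shares Nppa, Pln and Ryr2 with the cardiomyocyte markers, and 2 listed genes were not analysed here. Tgfb2 and Has2, a growth factor and the hyaluronan synthase of the endocardial cushions, both downstream of Tbx2 in the atrioventricular canal, rose by 4.82 ± 0.19 and 4.79 ± 0.18 (adjusted p = 1.71e-09 and 1.12e-09). Wnt5a, a Tbx1 target in the second heart field, rose by 3.54 ± 0.16 (4.12e-09; 1.52 averaged over its probe sets). Nppa, whose promoter is printed above, read 6.59 and 7.48 in embryoid bodies, against 3.98, 4.24 and 3.99 in PSC (2.96 ± 0.23, 6.9e-07). Gas1, a hedgehog co-receptor, rose 5.44-fold (6.84e-08; 1.00 log2 units averaged over its probe sets), and Id2, an inhibitor of helix-loop-helix factors used in the conduction system, 4.51-fold (2.27e-07).

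Gja5, a gap junction gene of the atria and conduction system and a textbook target of Tbx5, was dim and did not pass the test. It read 4.76 and 5.08 in embryoid bodies, against 4.27, 4.77 and 4.63 in PSC (0.36 ± 0.17, adjusted p = 0.117). Nppa and Gja5, which Tbx5 and Nkx2-5 regulate together in the mouse heart, thus gave different readings on the same arrays, 1 past the test and 1 not, and the difference between them was not tested. Between PSC and ESC, 1 of the 23 genes was higher, 2 were lower and 20 did not pass the test, beside 8.21% higher and 10.5% lower over all genes. Gbx2, a homeobox gene downstream of Tbx1 in the pharyngeal arches that is also active in naive stem cells, was at 5.44 in PSC and 8.64 in ESC (-3.20 ± 0.24, adjusted p = 4.55e-06), and Hes1, a Notch effector, was lower by -0.98 ± 0.13 (0.00027). Id2 was higher by 0.59 ± 0.13 (0.0101), a call lost on averaging its probe sets (0.373) and without PSC replicate 1 (0.0548).

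Of 17 signals and factors that act upstream of the T-box genes, 13 were higher in embryoid bodies, 2 lower and 2 short of the threshold, beside 18.1% higher and 23.7% lower over all genes. Their median difference was 1.28. Bmp2, the ligand that induces Tbx2 and Tbx3 in the atrioventricular canal, read 9.23 and 8.57 in embryoid bodies, against 3.19, 3.57 and 3.18 in PSC (5.59 ± 0.19, adjusted p = 3.67e-10). Cyp26a1, which degrades retinoic acid, and Rarb, a retinoic acid receptor, rose by 3.27 ± 0.18 and 2.47 ± 0.21 (2.65e-08 and 1.47e-06). The 2 lower genes were Nodal, at 9.85 in embryoid bodies and 10.31 in PSC, and Aldh1a2, at 4.09 and 4.54. Aldh1a2 was dim in both groups, and the alternatives that lost its call are given with the epicardial markers below. Shh and the forkhead genes Foxa2 and Foxc1, which drive Tbx1 in the pharyngeal region, rose by 1.85 ± 0.41, 2.79 ± 0.16 and 2.68 ± 0.15 (0.00332, 4.01e-08 and 3.24e-08) on the arrays where Tbx1 itself did not pass the test. Shh read 6.61 and 8.70 in embryoid bodies, and its rise was 2.90 without embryoid body replicate 1, 0.81 without replicate 2 and 1.07 averaged over its probe sets. Between PSC and ESC 0 of 17 were higher and 2 lower, and 15 missed the threshold (0 and 2 at an unadjusted p below 0.05), beside 8.21% higher and 10.5% lower over all genes. Bmp4 was at 7.87 in PSC and 9.47 in ESC (-1.60 ± 0.17, 7.54e-05). Smad1, which carries the Bmp signal, was lower by -0.48 ± 0.15 (0.0465). That call was lost with repeated quantile normalization (0.102), cyclic loess (0.0877), the average of its probe sets (0.103), the 2 groups alone (0.0509) and the replicate block (0.0556). It was also lost without any 1 of PSC 1 (0.0657), PSC 2 (0.191), PSC 3 (0.0572), ESC 1 (0.164) or ESC 3 (0.109). For PSC against ESC, leaving out either embryoid body array gives the same fit as the 2 groups alone and is no separate check.

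**Figure D4:**
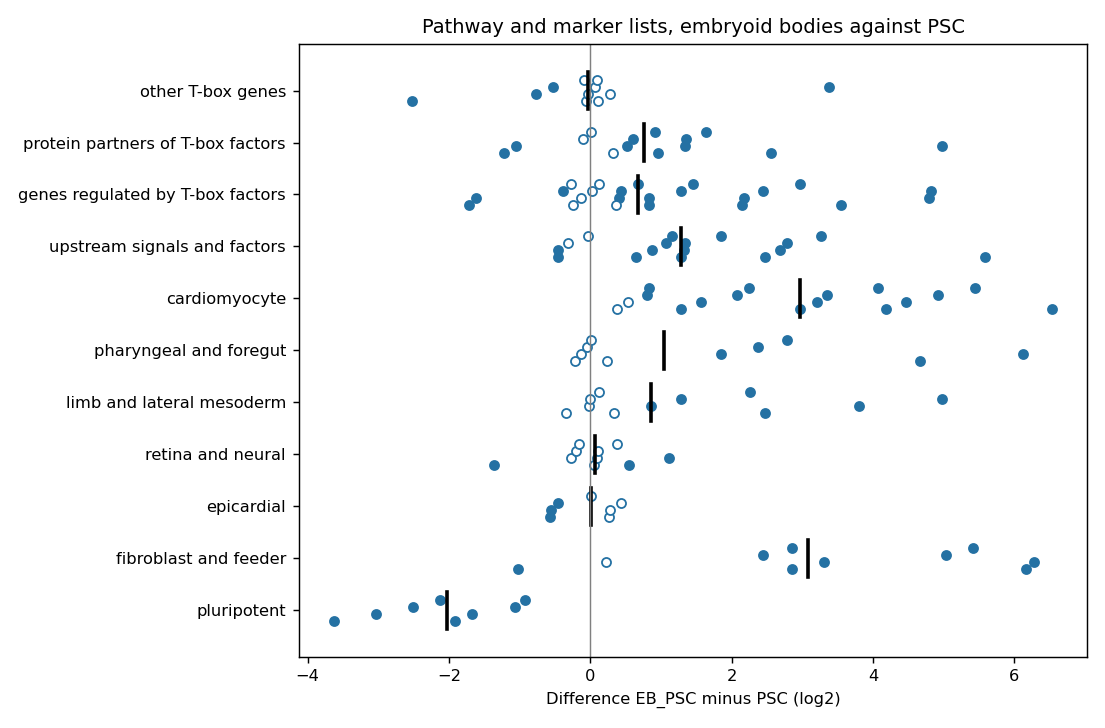
Difference of embryoid bodies minus PSC (log2) for the genes of the 4 pathway lists and the 7 marker lists, each gene by its brightest probe set. Filled points passed the test, open points did not, and the black bar is the median of the list. The medians ran from -2.03 (pluripotent) to 3.09 (fibroblast and feeder).

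T-box genes are used by several cell types, so markers of these were read on the same arrays, embryoid bodies against PSC. Over all genes 18.1% were higher, 23.7% lower and 41.8% changed in either direction, and the shares for the retinal and epicardial lists lay near or below the last. Of 17 cardiomyocyte genes 15 rose, 0 fell (17 and 0 at an unadjusted p below 0.05) and 2 did not pass the test, led by the cardiac actin gene Actc1 (6.53 ± 0.15), the troponin gene Tnnt2 (5.44 ± 0.15) and the ventricular light chain gene Myl2 (4.91 ± 0.32). The mean level of this list was higher in embryoid body replicate 2 (8.62) than in replicate 1 (7.92), the reverse of Tbx20 1453351_at and Tbx2 and the same order as Tbx20 1425158_at. Of 10 pharyngeal and foregut genes 5 rose and 0 fell (5 and 0 unadjusted), led by the endoderm genes Sox17 (6.12 ± 0.14), Foxa1 (4.66 ± 0.28) and Foxa2, and their mean level was 6.73 to 6.97 in embryoid bodies and 5.06 to 5.13 in PSC. Averaged over its probe sets, the Sox17 rise was 3.73. Pax1 (4.94 in embryoid bodies and 5.15 in PSC), Pax9 (6.40 and 6.45) and Nkx2-1 (4.81 and 4.95) did not pass the test. Neither did Pth (3.83 and 3.82) or Hhex (7.52 and 7.28). Of 11 limb and lateral mesoderm genes 6 rose and 0 fell (7 and 0 unadjusted), led by Hand2, Meis2 (3.80 ± 0.15) and the homeobox gene Msx2 (2.46 ± 0.20, or 1.24 averaged over its probe sets). Their mean level was 6.10 to 6.36 in embryoid bodies and 4.77 to 4.86 in PSC. Hoxa11 (4.48 in embryoid bodies and 4.51 in PSC), Hoxd13 (4.96 and 4.63) and Fgf10 (4.51 and 4.38) did not pass the test. Neither did Meis1 (4.67 and 4.68) or Msx1 (6.20 and 6.55).

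Retinal and neural markers, which cover the eye where Tbx2 and Tbx5 are also used, rose for 2 of 10, fell for 1 and kept a mean level of 5.64 to 5.69 in embryoid bodies and 5.52 to 5.74 in PSC. They were Otx2 (1.11 ± 0.16), Sox1 (0.55 ± 0.13, or 0.07 and past no threshold when its probe sets were averaged, adjusted p = 0.615) and Mitf (-1.37 ± 0.16). Sox1 was dim in both groups, at 4.98 in embryoid bodies and 4.43 in PSC. Epicardial markers gave 0 higher and 3 lower of 7 (1 and 3 unadjusted), with a mean level of 4.63 to 4.71 in embryoid bodies and 4.70 to 4.78 in PSC, below the dim limit in both. The 3 were Upk3b (-0.57 ± 0.16), Msln (-0.56 ± 0.16) and Aldh1a2 (-0.45 ± 0.16), and without embryoid body replicate 2 all 3 lost the call (adjusted p = 0.132, 0.0636 and 0.149). The Upk3b call was also lost without PSC replicate 2 (0.0632) or 3 (0.0551), and that of Msln without PSC replicate 1 (0.0506) or embryoid body replicate 1 (0.0842). That of Aldh1a2 was also lost without PSC replicate 1 (0.124) or 2 (0.123), embryoid body replicate 1 (0.131) or ESC replicate 3 (0.062), with repeated quantile normalization (0.0515) and with cyclic loess (0.0903). Of 10 fibroblast genes 8 rose and 1 fell, led by Postn (6.27 ± 0.19), Lum (6.16 ± 0.31) and Col3a1 (5.42 ± 0.22), with a mean level of 8.94 to 9.44 in embryoid bodies and 5.74 to 5.95 in PSC. All 8 pluripotency genes fell, most of all Esrrb (-3.62 ± 0.18), Klf4 (-3.03 ± 0.13) and Tfcp2l1 (-2.50 ± 0.13, or -0.91 averaged over its probe sets). Which of these cells carried the Tbx20 and Tbx2 signal was not tested.

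The genes whose pattern was most like that of each member were found by Pearson's r over the 8 arrays, among 3917 genes above the dim limit in at least 1 group and spanning at least 1 log2 unit between group means. For Tbx20 (1453351_at) they were Prnp, the prion protein gene (r = 0.998), Atxn1, the ataxin-1 gene (0.998), and Lpgat1, an acyltransferase gene (0.998). For Tbx2 they were the claudin gene Cldn12 (0.982), Cubn, which encodes the endocytic receptor cubilin (0.975), and the tumour necrosis factor receptor gene Tnfrsf1a (0.969). For Tbx1 they were Il17d (0.687), Esrp2 (0.682) and Arhgef3 (0.612), and for Tbx5 (1425695_at) Bmp6 (0.601), Tmem140 (0.581) and Tspan9 (0.559). These values describe 8 points that share 3 groups of arrays, so for Tbx20 and Tbx2 they largely restate the step between embryoid bodies and the stem cells, and for Tbx1 and Tbx5 they rest on the narrow ranges given above.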

How the data were processed

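RNA from 8 mouse cultures was hybridised to 1-colour Affymetrix arrays. The authors deposited log2 values made with RMA (robust multi-array average), a step named per the submitters' processing notes. No source used here gives its version or says if the arrays were normalized as 1 set. The scale was read from the values, and no further normalization was applied. RMA brings arrays to like distributions and compresses dim differences.

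Names came from the annotation of the array platform (1 symbol for 34958, several for 932, none for 9211 of 45101). After removal of 64 control probe sets, 45037 entered limma 3.58.1 under R 4.3.3, with lmFit and eBayes run once over the 8 arrays and no covariate besides group (5 residual and 7.21 prior degrees of freedom), with two-sided p-values and Benjamini-Hochberg adjustment over all probe sets. The threshold for a call was an adjusted p of 0.05. Errors of differences are standard errors. Listed genes were taken by the probe set with the highest mean. The text names all members, up to 6 called genes of each pathway list in embryoid bodies against PSC and up to 3 in PSC against ESC by size, 8 fixed genes, up to 3 genes of each marker list, and the 3 genes of most similar pattern. Besides these it names the upstream genes that fell and the pharyngeal and limb genes that did not pass the test. The members and lists were chosen with earlier results of these data known. Of 136 listed genes 129 were measured. The test was tested on simulated data. Tables and figures used Python 3.11.15, pandas 2.3.3, NumPy 2.4.6 and Matplotlib 3.10.9. The number of arrays limits the precision.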

Additional observations from a re-analysis of the deposited data

How the results depend on the processing

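The counts of calls and the differences of members and named genes were recomputed with quantile normalization again, cyclic loess, dim probe sets left out, 1 probe set per gene, averaged probe sets, no _x_at or _s_at probe sets, the 2 groups alone, a trended and robust prior, weighted arrays, a block for the replicate number, and without each array; for the gene lists these were added after seeing the data. The filter on dim probe sets left 3 of the 7 members, without Tbx2. A fit without 1 embryoid body array leaves 1 array in that group and takes its spread from PSC and ESC. Its calls, here and above, therefore cannot show whether the embryoid body arrays agree. The count of members past the test without any 1 PSC or ESC array was 3 in embryoid bodies against PSC and 3 against ESC. In the settings that dropped no single array it was 2 or 3 in both comparisons. Between PSC and ESC it was 0 with quantile normalization again, cyclic loess and the mean of all probe sets, and 0 to 1 without single arrays. No called difference of a member or named gene reversed.

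Over all features, 15531 passed for embryoid bodies against PSC (7994 with 1 probe set per gene, 8115 with the mean, 12361 to 16361 without single arrays), 7037 for PSC against ESC (3782, 3571 and 4395 to 7640), and 16154 for embryoid bodies against ESC (8164, 8347 and 13401 to 16416); the gene settings test 18193 features. The balance moved with cyclic loess, which called 8591 higher and 6461 lower for embryoid bodies against PSC (7031 and 8500 on the deposited values), and 9020 and 6941 against ESC (7384 and 8770 on the deposited values). For PSC against ESC, the deposited values gave 3186 higher and 3851 lower, quantile normalization again 3559 and 3541, and cyclic loess 3440 and 3537. In that comparison weighted arrays called 9971, and among single arrays left out the lowest counts came without PSC replicate 1 (4395) and 2 (4629). The cause was not tested.

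In embryoid bodies against PSC, epicardial genes past the test numbered 3, 0 with the filter, 6 with the mean and 0 to 3 without single arrays, and other T-box genes numbered 4, and 2 to 4 without single arrays. The filter left only 1 of the 7 epicardial genes to test, and of the 6 with the mean 3 were higher and 3 lower. Between PSC and ESC, partner genes numbered 5, 3 with quantile normalization, cyclic loess or the mean, and 2 to 4 without single arrays. Regulated genes numbered 3, 5 with cyclic loess or array weights, and 2 to 4 without single arrays. Upstream genes numbered 2, 1 with quantile normalization, cyclic loess, no _x_at or _s_at probe sets or the 2 groups alone, and 1 to 2 without single arrays. Other T-box genes numbered 1, 0 with the mean, 2 with the 2 groups alone, 3 with array weights, and 1 to 2 without single arrays.

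The labels number the replicates but do not say that numbers pair them, and not every same-numbered pair deviated together. Pearson's r was -0.14 and 0.05 for embryoid bodies with PSC, -0.26, -0.04 and -0.03 for PSC with ESC, and 0.16 and 0.20 for embryoid bodies with ESC. With the replicate block 3, 1 and 3 members passed in the 3 comparisons, and 14474, 6553 and 15055 probe sets in all; between PSC and ESC 2 other T-box genes and 1 upstream gene passed.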
